A study of Mus musculus with 146 samples.

Results

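The 35 genes described here encode proteins that act in mitosis, from entry kinases to the machinery of cytokinesis. They were taken as a fixed list of symbols, and all 35 were found among the 22721 genes of the count table and in the smaller variance-stabilised table. They were followed across untreated bone marrow-derived macrophage cultures, each grown from 1 outbred CFW mouse (Crl:CFW(SW)-US_P08) of 16 weeks, for 60 male and 86 female mice. Their marrow cells matured over 5 days with conditioned medium from L929, a fibroblast line that supplies the macrophage growth factor CSF1. Poly-A RNA of the 146 cultures was sequenced as 100-base pairs on 7 plates, and the labels carry 28 collection dates.

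Mitosis is the part of the cell cycle in which copied chromosomes are condensed, attached to a spindle and separated. Cdk1 bound to A- and B-type cyclins starts it, and the anaphase promoting complex ends it by marking cyclin B and securin for destruction. The genes of this programme are switched on together from late S phase to G2. The MuvB complex drives them, first with B-Myb and then with FoxM1, at promoter elements called the cell cycle genes homology region, or CHR. In resting cells the same MuvB core is part of DREAM, which keeps them silent. Macrophage precursors divide in culture while CSF1 is present and slow down as they mature. In bulk RNA, fewer dividing cells and less mitotic RNA per cell cannot be told apart.

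Library depth ran from 14.5 to 120.9 M (mega) counts with a median of 43.8 M counts. No member fell under 367 counts in any library, and counting error alone would give each a coefficient of variation (CV, the SD as a percentage of the mean) of 0.418 to 2.503%. Summed counts of 9 macrophage markers lay between 11917 and 25661 CPM (counts scaled to a common library total), while the erythroid, T and NK, and mast cell lists each summed to at most 1.39 CPM. Granulocyte precursor markers reached 77.1 to 1775 CPM and 4 monocyte markers 430.8 to 4256 CPM. In 6 libraries, 4 labelled female and 2 labelled male, Y-linked counts went against the labelled sex; results that rest on sex are given with and without them. Male library 49 held the highest value of 18 of the 35 members, and results were also computed without it.

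The promoter letters of members that the results below turn on are shown first. RefSeq windows from 250 bases before to 50 bases after the gene start (build GRCm38.p6) were at hand for 30 of the 35 members, and Aurkb, Kif20a, Tpx2, Ccna2 and Shcbp1 had none. Capitals mark, on either strand, the CHR letters TTTGAA, the CHR variant TTCGAA and the CCAAT box, which binds NF-Y. The E2F letters TTTCCCGC and TTTGGCGC were also searched and do not occur in the printed stretches. Adjacent matches may share letters, as in CCAATTGG of Ube2c, which holds CCAAT on both strands. Each line runs 5′ to 3′ on the gene's strand and covers 280 bases, ending 30 bases past the gene start that RefSeq gives. The annotation behind the gene coordinates used here places some of these starts elsewhere. Top2a, Mki67, Kif11 and Anln are shown as the members with the highest mean correlation with the other members among those whose window holds a motif. Bub1 and Ube2c were added after values were seen, because they formed opposite poles of the members.
Top2a, chr11:99024160-99024439, minus strand: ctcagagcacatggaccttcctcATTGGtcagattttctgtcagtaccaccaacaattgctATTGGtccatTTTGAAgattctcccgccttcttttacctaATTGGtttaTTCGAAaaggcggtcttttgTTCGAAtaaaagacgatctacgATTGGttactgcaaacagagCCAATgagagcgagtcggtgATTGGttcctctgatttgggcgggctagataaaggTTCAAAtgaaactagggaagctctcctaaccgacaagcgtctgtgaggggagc
Mki67, chr7:135716350-135716629, minus strand: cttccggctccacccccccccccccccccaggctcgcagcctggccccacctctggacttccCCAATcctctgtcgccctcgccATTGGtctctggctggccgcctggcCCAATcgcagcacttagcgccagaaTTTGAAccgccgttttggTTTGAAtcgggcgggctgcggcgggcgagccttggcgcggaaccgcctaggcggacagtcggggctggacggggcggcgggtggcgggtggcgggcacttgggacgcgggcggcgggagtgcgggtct
Kif11, chr19:37376132-37376411, plus strand: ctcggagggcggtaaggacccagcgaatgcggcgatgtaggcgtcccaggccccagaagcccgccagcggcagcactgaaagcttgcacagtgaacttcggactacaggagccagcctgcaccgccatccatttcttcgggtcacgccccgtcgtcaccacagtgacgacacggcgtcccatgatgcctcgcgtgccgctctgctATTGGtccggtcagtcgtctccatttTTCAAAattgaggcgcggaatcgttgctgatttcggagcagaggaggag
Anln, chr9:22389177-22389456, minus strand: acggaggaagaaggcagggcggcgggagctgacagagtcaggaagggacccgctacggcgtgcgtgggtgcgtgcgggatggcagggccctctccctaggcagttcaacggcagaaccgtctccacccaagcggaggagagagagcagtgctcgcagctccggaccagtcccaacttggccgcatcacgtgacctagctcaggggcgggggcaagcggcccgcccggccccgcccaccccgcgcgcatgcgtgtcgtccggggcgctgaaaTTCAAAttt
Bub1, chr2:127831830-127832109, minus strand: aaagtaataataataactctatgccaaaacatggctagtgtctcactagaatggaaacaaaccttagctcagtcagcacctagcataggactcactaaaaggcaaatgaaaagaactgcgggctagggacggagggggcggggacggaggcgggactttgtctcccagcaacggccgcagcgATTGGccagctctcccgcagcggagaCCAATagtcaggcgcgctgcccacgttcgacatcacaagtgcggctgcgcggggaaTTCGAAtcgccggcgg
Ube2c, chr2:164769679-164769958, plus strand: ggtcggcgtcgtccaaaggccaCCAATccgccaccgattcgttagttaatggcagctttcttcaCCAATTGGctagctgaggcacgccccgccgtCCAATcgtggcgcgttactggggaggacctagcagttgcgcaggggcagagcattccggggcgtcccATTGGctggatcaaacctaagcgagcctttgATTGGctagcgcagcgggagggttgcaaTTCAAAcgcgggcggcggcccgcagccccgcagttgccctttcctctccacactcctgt

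The letters TTTGAA occurred in 23 of the 30 member windows (76.67%), in 4 of 23 windows of DNA replication genes (17.39%) and in 2886 of 17491 windows of protein-coding genes (16.5%). CCAAT occurred in 23 member windows (76.67%), in 60.87% of replication windows and in 39.03% of protein-coding windows. The variant TTCGAA lay in 3 member windows, those of Top2a, Bub1 and Bub1b, against 1.87% of protein-coding windows. An E2F match lay in 1 member window (3.333%), that of Ncapg, in 8 replication windows (34.78%) and in 2.093% of protein-coding windows. Bub1 had TTCGAA and no TTTGAA, while Ube2c had 1 TTTGAA and 6 CCAAT matches. These shares describe the letters in the windows and no binding was measured.

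All 35 genes were expressed in every culture. The highest library held from 1.70 times (Ccnb2) to 3.24 times (Ccnb1) the CPM of the lowest. Per transcript length (in TPM, counts per exon length scaled to a common total), Mki67, which coats mitotic chromosomes, stood highest with a lowest value of 330, a median of 524 and a highest of 706 TPM. Next came Top2a, the topoisomerase that untangles sister chromatids, with 188, 280 and 368 TPM. Ccna2 (cyclin A2) had a median of 256 TPM and Ccnb2 (cyclin B2) one of 232 TPM, and the ranges of these 3 genes overlapped. At the low end stood Shcbp1, a cytokinesis protein of the midbody, with 15.8, 26.5 and 36.8 TPM, beside the checkpoint kinase Ttk with a median of 30.3 TPM. Together the members took 0.415 to 0.772% of all counts in a library, with a median of 0.587%.

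**Figure D1:**
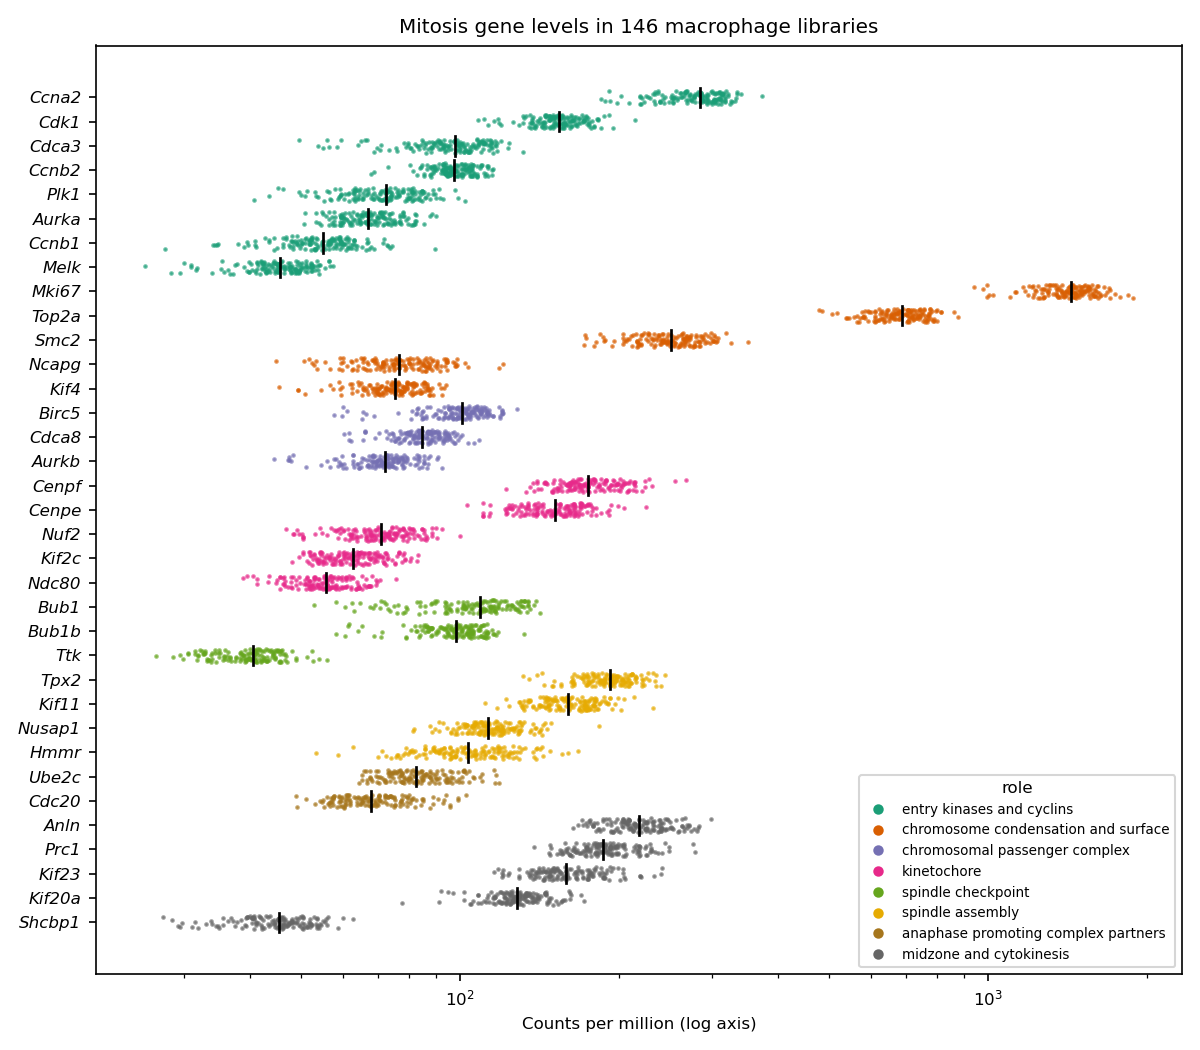
Each point is 1 of 146 libraries and gives the CPM (log axis) of 1 mitosis gene, and the black bar is the median. Genes are grouped by role. Medians run from 40.5 CPM for Ttk to 1436 CPM for Mki67.

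The spread was modest and uneven among members. Hmmr, a microtubule-binding protein of the spindle, had the largest CV with 19.6%: its lowest library held 53.3, its median 103 and its highest 167 CPM. Bub1, a kinase of the spindle checkpoint, followed at 19.2%, with 52.9, 109 and 142 CPM, and the 90th percentile was 1.76 times the 10th, the widest such ratio of the members. Ccnb2 was steadiest with a CV of 8.81%, and 67.8, 97.3 and 116 CPM. Ccnb1 (cyclin B1) had the widest full range, and its highest library stood 3.24 times above its lowest. The median CV of the members was 13.2%, against 11.2% for 5063 other genes of the same CPM range, of which 65.7% lay below the members' median. Averaged over the 35 genes, the level of a library (its mean log2 deviation) ran from -0.399 to 0.389, and the 90th percentile of libraries was 1.26-fold above the 10th.

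Highs and lows were held by few cultures. Male library 49, on plate 8, had the highest mean level (0.389). Female library 24 (-0.399), male library 37 (-0.382), male library 11 (-0.381) and male library 12 (-0.379) were the lowest, and 3 of these 4 carried the date label 22 July 2010. Male library 11 also held the lowest value of 7 members. Log2 depth had a Spearman correlation (rho) of 0.112 with the member level over the 146 libraries. Within single plates, its rho with the members' mean z score ran from -0.525 to 0.487.

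The members moved together from culture to culture. After linear removal of plate and sex from log2 CPM, the mean rho over all 595 pairs was 0.536, 589 pairs were positive and 370 (62.2%) exceeded 0.5. Over pairs of all 12877 genes tested the mean was 0.000475, and 1.88% exceeded 0.5. Those genes were not matched to the members' level, and the members were chosen with earlier results of these data known. A single component carried 58.6% of the members' variance and a second 12.8%. These correlations are descriptions over 146 libraries. The genes of a pair share the library, its depth and its RNA.

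**Figure D2:**
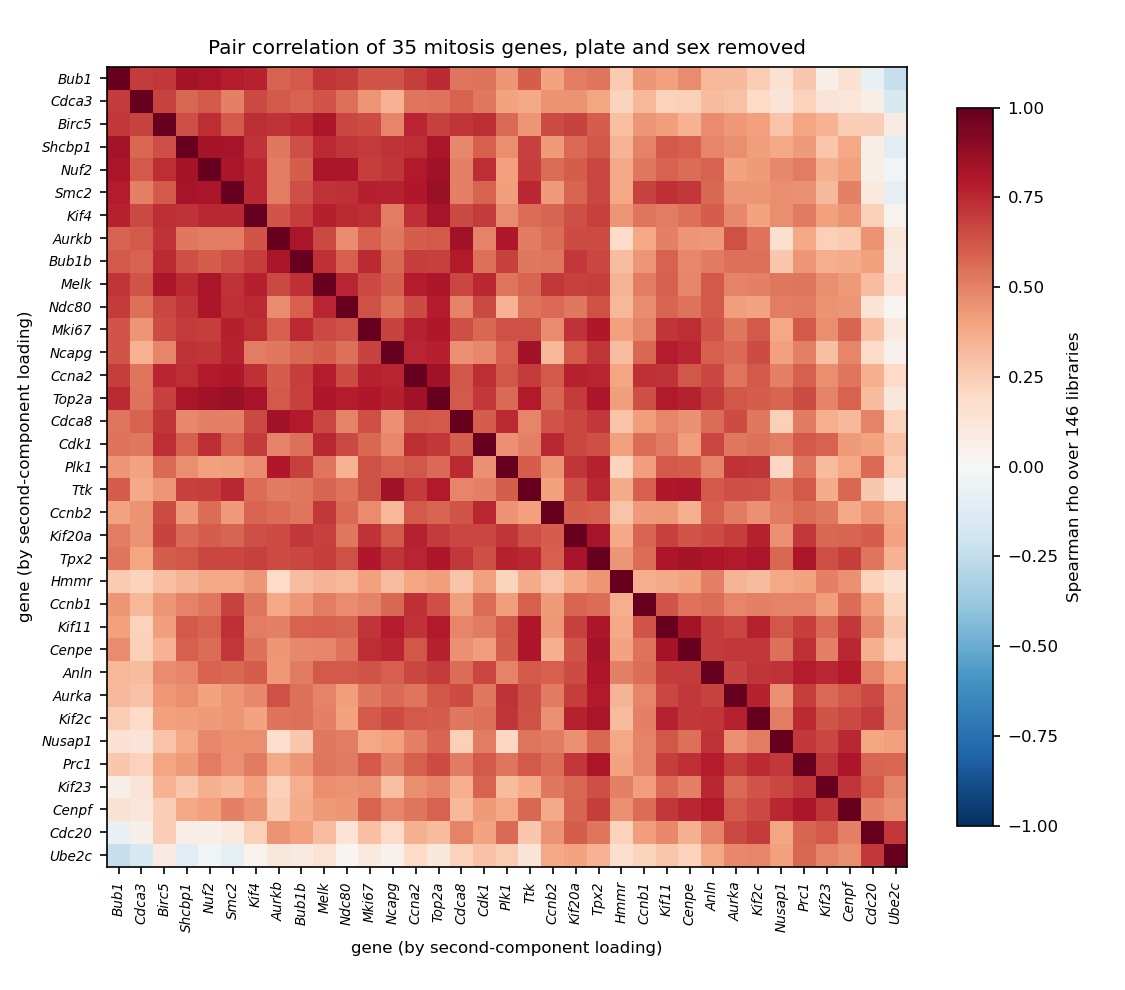
Each cell is the Spearman rho of 2 mitosis genes over 146 libraries (colour scale from -1 to 1), with genes ordered by their weight on the second component. Most cells are positive, and the corner that sets Ube2c and Cdc20 against Bub1, Cdca3 and their neighbours is pale or blue, down to -0.229 for Bub1 with Ube2c.

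Tpx2, which brings Aurora A to the spindle (ENSMUSG00000027469, chr2:152847964-152895321, plus strand), had the highest mean rho with the other members, 0.672. Its levels were 131 CPM in the lowest library, 192 CPM at the median and 244 CPM in the highest. Top2a followed with a mean rho of 0.667, then Ccna2 with 0.645 and Kif20a, a kinesin of the central spindle, with 0.625. The closest pair was Top2a with Smc2, a condensin subunit, at 0.866. The loosest members were Ube2c (mean rho 0.214), Hmmr (0.350), Cdc20 (0.371) and Cdca3 (0.397). All 6 negative pairs held Ube2c or Cdc20.

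Among entry kinases and cyclins the mean pair rho was 0.554. Cdk1, the kinase of mitotic entry, went with its partner Ccnb2 at 0.753 and with Ccnb1 at 0.557, while the 2 cyclin B genes reached 0.427 with each other. Ccnb1 shares 23.4% of its 50-base stretches with a processed copy, so its counts are less certain. Plk1, a kinase of spindle poles and kinetochores, was closest to the passenger kinase Aurkb, at 0.7999. Melk, a kinase of the same expression programme, had a mean rho of 0.611. Aurka, the spindle pole kinase, was closest to its activator Tpx2, at 0.794. Cdca3, which helps to degrade the mitotic inhibitor Wee1, was closest to Bub1, at 0.696.

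Genes of chromosome condensation and of the passenger complex formed the tightest role groups. The 5 condensation and surface genes averaged a rho of 0.750 among themselves and 0.579 with the other members. Smc2 and Ncapg, a further condensin subunit, reached 0.773, and the chromokinesin Kif4 was closest to Top2a, at 0.827. The 3 passenger genes averaged 0.757: Aurkb with Cdca8 (borealin) reached 0.838, Aurkb with Birc5 (survivin) 0.719, and Birc5 with Cdca8 0.714. These 3 proteins sit in a single complex at the inner centromere.

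Kinetochore genes averaged 0.571. Ndc80 and Nuf2, which form a coiled rod that holds microtubules, reached 0.811, and Cenpe with Cenpf, a motor and a corona protein, 0.750. Kif2c, which depolymerises microtubules, was closest to Tpx2 at 0.814. The spindle checkpoint genes Bub1, Bub1b and Ttk averaged 0.581, with all 3 of their pairs between 0.529 and 0.610. Ttk was closest to Ncapg, at 0.842. Among spindle assembly genes, Kif11, the motor that pushes the poles apart, reached 0.806 with Tpx2, Nusap1 was closest to Cenpf at 0.753, and Hmmr went with none above 0.505.

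The midzone genes averaged 0.595. Prc1, which bundles the central spindle, reached 0.788 with the contractile ring scaffold Anln and 0.713 with the centralspindlin motor Kif23. Kif23 and Shcbp1 reached 0.280, the lowest pair of the group, and Shcbp1 was closest to Nuf2, at 0.835. Kif20a overlaps Cdc23 over 29.3% of its exon length, and the strand setting of the counting is not given in the sources used here. Cdc20, which activates the anaphase promoting complex, and Ube2c, the ubiquitin-conjugating enzyme that serves it, reached 0.703 with each other but averaged 0.280 with the other members. Ube2c overlaps Tnnc2 over 22.8% of its exon length.

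The second component separated Ube2c (weight 0.371), Cdc20 (0.306), Cenpf (0.277) and Kif23 (0.266) from Bub1 (-0.268), Cdca3 (-0.239), Birc5 (-0.195) and Shcbp1 (-0.176). Bub1 and Ube2c both lie on chromosome 2, and both stand on the list of late transcripts described next. Bub1 (ENSMUSG00000027379, chr2:127801122-127831865, minus strand) and Ube2c (ENSMUSG00000001403, chr2:164769898-164778822, plus strand) had a rho of -0.229, the lowest of all pairs. Their promoter stretches above differ in the CHR letters they hold. Windows without TTTGAA lay on both sides, such as those of Birc5 and Nusap1 (weight 0.238). Cdca3 held 1 TTTGAA, as Ube2c did. A link of these letters to the component was not tested.

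Lists of 13 late and 12 early members were taken from textbook knowledge of transcript timing. By pair correlation the early list held together, and the late list did not stand apart from it. Early members averaged a pair rho of 0.718 among themselves. Late members averaged 0.488 among themselves, slightly less than the 0.503 of pairs across the lists. The late and early scores (mean z score of the list) went together with a rho of 0.804 and a Pearson r of 0.796, and r was 0.797 without the 2 libraries farthest from the median of the early score. Within single plates the rho of the scores lay between 0.547 and 0.943. Late minus early levels of a library ran from -0.228 to 0.295 log2.

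Bub1 stood on the late list but followed the early one. Its rho with the score of the other late members was 0.386 and with that of the early members 0.791. Ube2c had 0.423 with the other late members' score and 0.117 with the early one. Tpx2 went with both, at 0.914 for the late and 0.821 for the early score. Of the 10 genes on neither list, Prc1 leaned to the late score (0.832 with late, 0.647 with early) and Birc5 to the early score (0.598 with the late members, 0.760 with the early ones).

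The relation to DNA replication genes, which act in S phase, ordered the members along the same line. Bub1 had the highest rho with the score of 28 replication genes, 0.802, followed by Birc5 (0.735) and Cdca3 (0.695). Ube2c had the lowest, -0.355, with Cenpf at -0.143 and Cdc20 at -0.114. The score of all 35 members had a rho of 0.420 with the replication score (Pearson r 0.588, and 0.530 without the 2 libraries farthest from the median of the replication score). The late score had a rho of 0.237 and the early score one of 0.571. Late minus early scores went against it with a rho of -0.659 (r -0.717, and -0.691 without those 2 libraries), and this rho was negative within all 7 plates, from -0.943 to -0.327. For the score of all members, the within-plate rho ran from -0.00889 to 0.714. Without the 5 libraries of 22 July 2010, the pooled rho was -0.631 for late minus early scores and 0.369 for all members.

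**Figure D3:**
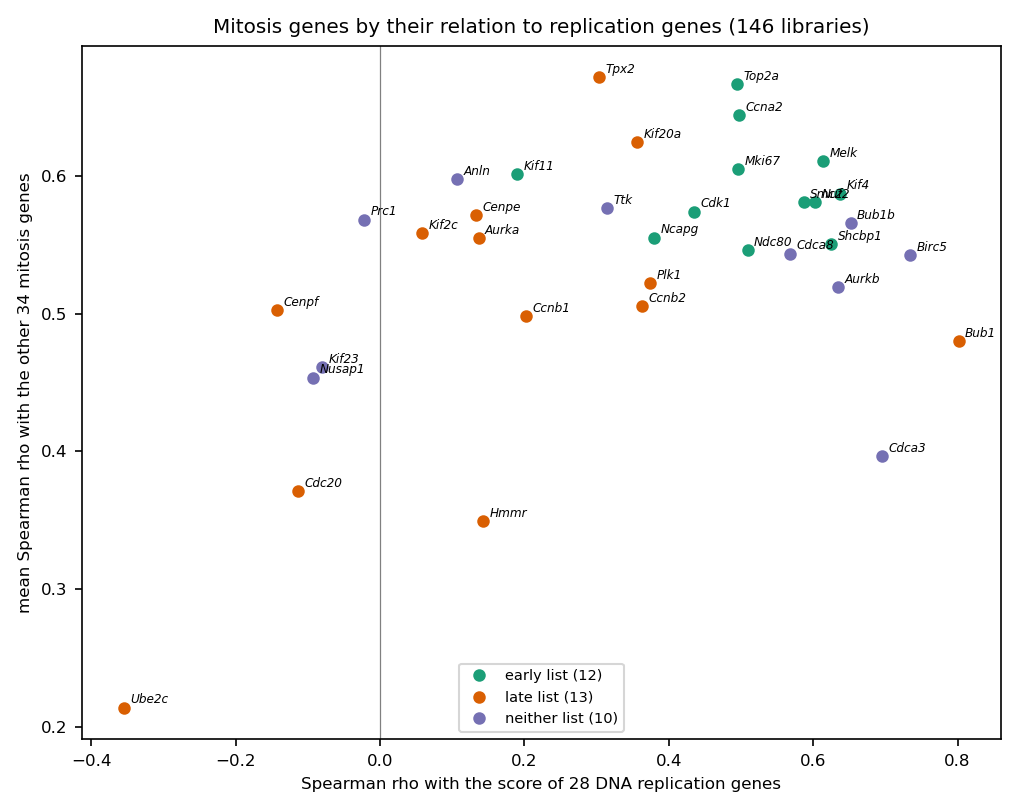
Each point is a mitosis gene, with its Spearman rho with the replication score on the horizontal axis and its mean rho with the other 34 mitosis genes on the vertical axis, over 146 libraries. Bub1, on the late list, lies farthest right at 0.802, and Ube2c lies apart at the lower left with -0.355 and 0.214.

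Monocyte markers, among other marker lists, moved with the same contrast. Late minus early scores had a rho of 0.434 with the summed monocyte markers (Ly6c2, Ccr2, F13a1 and Chil3), from 0.101 to 0.627 within plates. The replication score had one of -0.591 with them, negative within all 7 plates, and the second component one of 0.582. F13a1 held most of the sum, with a median of 1313 CPM where the sum had one of 1565 CPM. Singly, the 4 markers had a rho of 0.288 (Chil3) to 0.590 (F13a1) with the second component. That component also had a rho of 0.485 with the B cell, 0.403 with the dendritic cell and 0.336 with the megakaryocyte markers. On the negative side were the erythroid (-0.378), stem and progenitor (-0.241) and macrophage (-0.152) lists. The dendritic cell and erythroid sums were low, with medians of 4.99 and 0.237 CPM. Chil3 shares 26.9% of its 50-base stretches with other genes and is less certain. The rho of the late minus early score was 0.386 with the B cell markers, of which 5 of 6 had a median under 0.1 CPM, and ran from -0.314 to 0.558 within plates. It was 0.232 with the granulocyte precursor markers, from -0.771 to 0.480 within plates. The score of all members had a rho of -0.407 with the sum of the 9 macrophage markers, negative within all 7 plates. Lyz2 held most of that sum, with a median of 9571 CPM where the sum had one of 15645 CPM. Taken singly, the 9 markers ran from -0.370 (Lyz2) to 0.261 (Fcgr1), with a median of -0.175, and 4 were positive. The score of all members had a rho of -0.332 with the dendritic cell markers and -0.0716 with the granulocyte precursor markers. The part of these cells in the results was not tested.

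**Figure D4:**
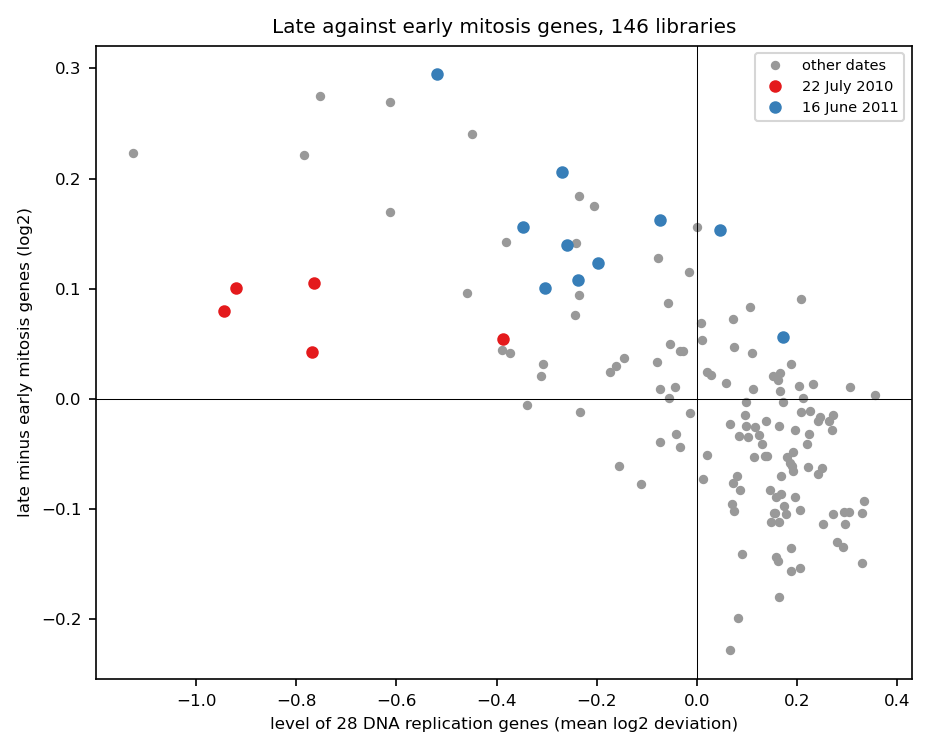
Each point is 1 of 146 libraries, with the level of 28 DNA replication genes (mean log2 deviation) on the horizontal axis and the late minus early level of the mitosis genes (log2) on the vertical axis. Red points are the 5 libraries of 22 July 2010 and blue points the 10 of 16 June 2011. The 5 red libraries lie low in replication genes with late minus early values of 0.0426 to 0.105, and the highest blue library reaches 0.295.

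Levels of the members overlapped between the sexes. Male cultures had a mean member level of 0.000981 ± 0.152 (SD, n = 60) and female cultures one of -0.000684 ± 0.132 (n = 86). None of the 35 members passed an adjusted p of 0.05 in edgeR's quasi-likelihood test with plate as a covariate, and 5.06% of all genes tested did. Without adjustment, 4 members had a p under 0.05: Prc1, Kif23, Hmmr and Cenpf, and limma voom counted 3 members and DESeq2 4. Without male library 49 the edgeR count was 2. No share of all genes at an unadjusted p is given, here or below, so these counts have no background to be read against. Prc1 held 148, 190 and 279 CPM (lowest, median, highest) in male cultures and 138, 185 and 276 CPM in female cultures, so the groups overlapped over almost their whole range. Its male minus female log2 difference was 0.08 with a standard error of 0.028 and an edgeR adjusted p of 0.0615. Without the 6 libraries whose Y-linked counts went against the label, Prc1 was the 1 member that passed (difference 0.09, edgeR adjusted p 0.0302), where 7.66% of all genes did. Over 15 alternatives its adjusted p ran from 0.0302 to 0.172. Differences of the members spanned -0.05 to 0.10 log2, with standard errors of 0.0185 to 0.0459 and a median of 0.0079, against 0.0017 for all genes tested, that turned negative with date in place of plate. No member showed a sex difference that was unequal between plates (0 of 35 passed in edgeR, 1 had an unadjusted p under 0.05, or 3 without male library 49, and 0.0466% of all genes passed).

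On the edgeR F test for plate, 25 of 35 members passed, and 71.4% of all genes did. Among 5137 other genes at the members' level, 84.4% passed. The largest F values were those of Kif23 (10.6), Cdc20 (10.5), Ccnb2 (9.75) and Ube2c (9.71). F weighs a difference against the gene's own spread, so it does not rank the size of plate differences. Ccnb2 plate means lay between 89.7 and 102 CPM, and those of Hmmr between 94.9 and 129 CPM. The members that did not pass were Melk, Cdca8, Plk1, Aurkb, Anln, Bub1b, Cdca3, Ndc80, Birc5 and Kif4. Mean member levels were 0.0736 ± 0.158 on plate 1 (n = 6), -0.0860 ± 0.168 on plate 2 (n = 24), -0.0249 ± 0.109 on plate 3 (n = 22) and 0.00585 ± 0.116 on plate 4 (n = 24). They were 0.0276 ± 0.0776 on plate 7 (n = 23), 0.0702 ± 0.155 on plate 8 (n = 23) and -0.00913 ± 0.145 on plate 10 (n = 24). No plate mean lay farther from zero than that of plate 2, and the SD within a plate was 0.0776 to 0.168. Plate 7 had the smallest spread, and within it the members' mean pair rho was 0.296, against 0.447 to 0.660 within the other plates. With collection date as a further covariate, 1 member, Ncapg, passed the plate test and 9 had an unadjusted p under 0.05, and 10.3% of all genes passed.

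Collection date, tested beside plate, separated 33 of 35 members, where 65.9% of all genes passed, but 16 of 35 without the 5 libraries of 22 July 2010. Among the other genes at the members' level, 78.7% passed. Hmmr (edgeR adjusted p 0.0703) and Nusap1 (0.0861) were the members that did not. Ncapg had the largest F, 4.81 (edgeR adjusted p 4.55e-08), then Cenpe with 3.76 and Kif2c with 3.62. Date alone accounted for a median of 31.5% of the members' variance (adjusted R2) and 24.4% over all genes, plate alone for 12.997% and 10.35%. The share was largest for Ncapg (46.9%), Cenpe (43.6%) and Ccnb2 (41.4%) and smallest for Hmmr (14.1%).

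The 5 cultures dated 22 July 2010 stood lowest of the 28 dates. Their member levels averaged -0.299 ± 0.124 and ran from -0.399 to -0.120. One of them sat on plate 1 (-0.217) and 4 on plate 2 (mean -0.320 ± 0.134). Bub1 averaged 62.9 ± 8.28 CPM in these 5, with values from 52.9 to 71.9 CPM, where its median over all libraries was 109 CPM. Ube2c averaged 81.8 ± 5.06 CPM there, from 77.1 to 87.5 CPM, where its overall median was 82.5 CPM. Of the dates with at least 4 libraries, 22 July 2010 gave the lowest mean of 27 members, and 23 September 2010 that of the other 8, which were Kif11, Kif23, Kif2c, Cenpe, Cenpf, Nusap1, Prc1 and Ube2c. No share of all genes is given for these counts. The members moved together, so the counts are not separate results for each gene. Replication genes averaged -0.757 ± 0.223 log2 on 22 July 2010. The monocyte markers summed to 3016 ± 199 CPM there, from 2825 to 3305 CPM, where the median over all libraries was 1565 CPM, and their part in the result was not tested. Without these 5 libraries the members' date share fell to 22.5% and that of all genes to 21.1%. Of all genes, 49.5% then passed the date test that 16 members passed. This date was left out after its values were seen. With the 5 libraries kept but plate and sex removed, the date share was 19.3% for the members and 12.2% for all genes.

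The 8 cultures of 23 June 2011, all on plate 8, stood highest. Their member levels averaged 0.167 ± 0.150 and ran from -0.0502 to 0.389, and 17 members had their highest mean there among the dates with at least 4 libraries. No share of all genes is given for this count either. Tpx2 averaged 215 ± 20.9 CPM on that date. The other 3 dates on plate 8 averaged 0.0388 (n = 8), 0.0211 (n = 4) and -0.0394 (n = 3), with SDs of 0.117 to 0.187. The 10 cultures of 16 June 2011, all on plate 10, differed in balance: late members averaged 0.166 ± 0.0984 and early members 0.0158 ± 0.132. Cdc20 averaged 91.3 ± 7.94 CPM and Ube2c 102.5 ± 9.79 CPM on that date, the highest means of both among the dates with at least 4 libraries. All 8 cultures of 23 September 2010 lay below the overall mean, at -0.116 ± 0.062, with replication genes at 0.134 ± 0.112. Date accounted for 33.8% of the late minus early variance and plate for 19.6%.

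**Figure D5:**
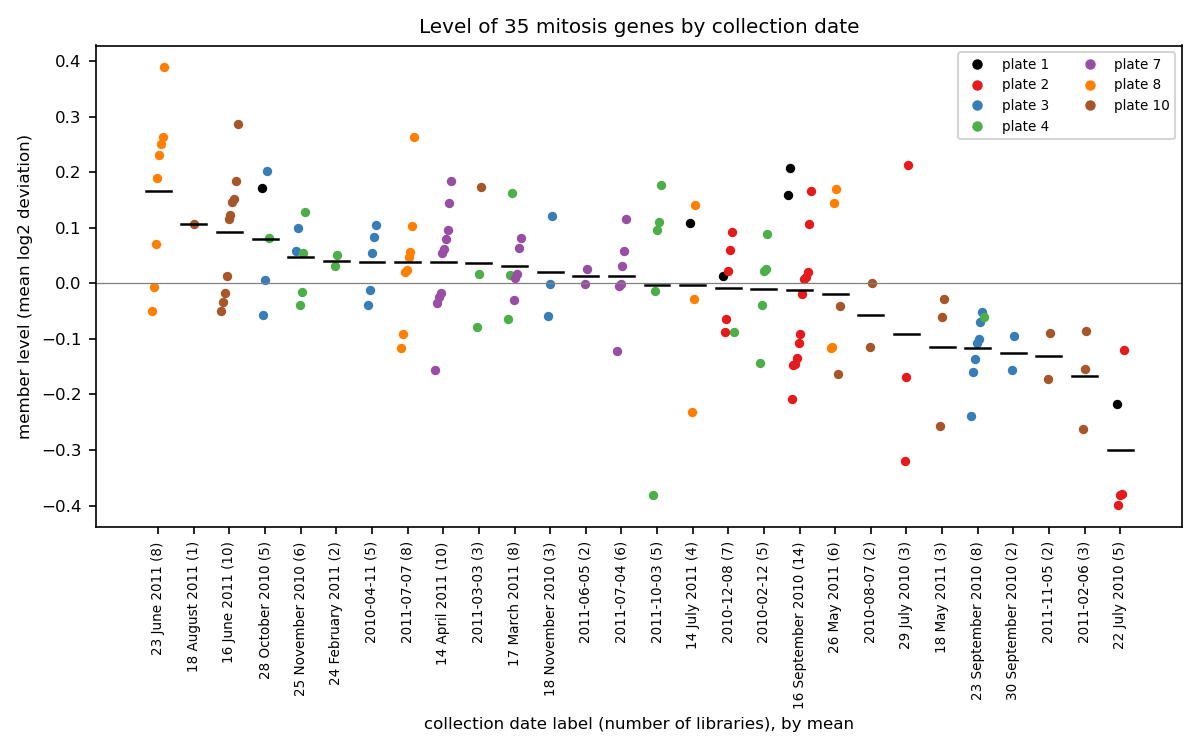
Each point is 1 of 146 libraries, with its mean log2 deviation over the 35 mitosis genes on the vertical axis, in columns by collection date label ordered by their mean (black bar), coloured by plate. Numbers in brackets count libraries. Some labels leave day and month unclear, so the columns are not in time order. 23 June 2011 stands highest at a mean of 0.167 and 22 July 2010 lowest at -0.299.

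Of the 12 genes outside the 35 most like the member score, 9 were on the list of other mitosis genes, and Knl1, Cip2a and Parpbp were on none. Ect2, the exchange factor that starts the cleavage furrow, had a rho of 0.856 over the 146 libraries, followed by the chromokinesin Kif22 (0.831), the cohesin protector Sgo2a (0.814), the kinetochore scaffold Knl1 (0.812) and the condensin subunit Smc4 (0.809). Kif20b, Cdca2, Dlgap5, Cip2a, Parpbp, Nek2 and Kif15 completed the first 12, down to 0.760. Sgo2a shares 33.97% of its 50-base stretches with another gene and is less certain. At the other end stood Itm2c (-0.682), Fbxo31 (-0.610), Tyrobp (-0.604), which encodes the DAP12 signalling adaptor, and Hexa (-0.601), a lysosomal hexosaminidase. Abhd4, Gsto1, Grina, Tmed3, Ergic3, Uckl1, Htatip2 and Slc7a11 followed, up to -0.534. Of the genes tested outside the list, 150 (1.17%) exceeded 0.5 and 35 (0.273%) fell under -0.5.

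Of 54 further mitosis genes, 38 had a rho above 0.5 with the member score, with a median of 0.595. Of 28 replication genes 2 did, Rrm1 (0.608) and Rrm2 (0.538), the subunits of ribonucleotide reductase, and the median was 0.382. Among 13 activators of mitotic transcription, the MuvB subunits Lin54 (0.651) and Lin9 (0.635) and the factor Foxm1 (0.570) passed 0.5, and Mybl2, which encodes B-Myb, had 0.294. Of 21 repressors and inhibitors of the cycle 2 exceeded 0.5: the CDK4 and CDK6 inhibitor Cdkn2c (0.599) and the pocket protein Rbl1 (0.512). Of 13 interphase cyclins and kinases, Ccnf (0.503) did.

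Among 18 genes of the checkpoint and of the anaphase promoting complex core, 3 exceeded 0.5. They were the APC inhibitor Fbxo5 (0.689), the kinetochore protein Zwilch (0.632) and the APC subunit Cdc23 (0.528), which overlaps Kif20a. None of 15 growth signal and macrophage regulators did. The largest in size there were the myeloid factor Spi1 (-0.414) and the cytokine receptor chain Csf2rb (-0.340).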

How the data were processed

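The authors deposited raw counts per gene for 146 libraries, 1 per mouse, and a variance-stabilised table on a log2 scale. The submitters' processing notes name TopHat2 2.0.11, HTSeq 0.6.1, DESeq2, FastQC and the builds GRCm38 and mm10. Their roles, the strand setting and the annotation release are not given in the sources used here. The deposited log2 values served as an alternative only. No column was left unused (0).

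From the deposited counts, 12877 genes passed filterByExpr, and edgeR 4.0.16 in R 4.3.3 fitted all of them with TMM scaling and quasi-likelihood F tests, adjusted by the Benjamini-Hochberg method over all genes (threshold 0.05). Sex (male minus female) was tested beside plate, plate beside sex, date beside plate and sex, and sex by plate as an interaction. Limma voom (limma 3.58.1) and DESeq2 1.42.0 were alternatives. Only the fit for sex was tested on simulated data, which held no plate or date differences. P-values measure the spread between libraries, 1 per mouse. The main fits for sex, plate and their interaction held no date term, so that spread includes differences between collection dates. Correlations used log2 CPM (prior count 2) after linear removal of plate and sex. Sequencing lanes were not modelled, and genotype and wound data were not analysed here.

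Symbols were matched for 21822 of 22721 gene IDs. TPM values and shared 50-base stretches came from GENCODE exons. A gene was treated as uncertain where at least 20% of its stretches occur elsewhere. Members and lists were chosen with earlier results of these data known. Besides the 35 members, the genes named were the 12 highest and 12 lowest in rho with the member score (mean log2 CPM of at least 1), leaving out unnamed loci, and up to 4 per pathway list. Promoters were shown for the 4 members with the highest mean rho that have a window holding a motif. Those of Bub1 and Ube2c, the lowest pair, were chosen after their values were seen. One marker gene is not reported here, and the marker sums were computed without it.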

Additional observations from a re-analysis of the deposited data

Results flagged for a closer look

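The member level and the late minus early level were each checked within the 16 date labels and the 1 plate that held 4 to 10 libraries, 34 checks in all, and 1 library stood apart from its group. Female library 42 had a late minus early level of 0.000278 log2, the highest of 5 libraries with its date label, and the other 4 ran from -0.104 to -0.0827. Its gap to the next library was large against the range of the 5. Chance flags about 1 in 20 groups, and 1 of 34 was flagged here.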

How the results depend on the processing

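No paired analysis was possible because replicate numbers were given in accession order and pair no mice. Each of 7 results was recomputed under 3 to 17 alternatives. Leaving out the 6 libraries against the labelled sex brought the sex count to 1 member (5 with an unadjusted p under 0.05), and the other 14 alternatives gave 0. With date as a further covariate the plate count was 1, and its other 6 alternatives gave 25 to 29. Without the 5 libraries of 22 July 2010 the date count was 16 and the date share of variance 22.5% (21.1% for all genes). After removal of plate and sex that share was 19.3% (12.2% for all genes). The date count was 33 in the other 5 alternatives, and the sex by plate count was 0 in all 3. With values computed anew from single plates, the mean pair rho was 0.296 on plate 7, and the rho of the early and late scores was 1 on plate 1 (6 libraries), 0.584 on plate 4 and 0.649 on plate 7. The causes were not tested. The alternatives without male library 49, without 22 July 2010 and, for correlations, without the 6 libraries were chosen after seeing the data. Leaving out male library 49 changed no count of members past the adjusted threshold, but the counts at an unadjusted p under 0.05 were 2 for sex, 25 for plate, 33 for date and 3 for sex by plate, against 4, 26, 34 and 1 with it. The median male minus female difference of the members turned negative with date in place of plate, with no covariate and without plates 2, 7 or 10. No member fell under 367 counts, so none was near the floor. Within plates, the rho of log2 depth ran from -0.525 to 0.487 with the member score. With the late minus early score it ran from -0.657 to 0.327. The part of depth in the results was not tested.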
